A study of Mus musculus with 10 samples.

Results

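The genes described here are the mouse cytochrome P450 genes of families 1 to 3, chosen by their symbol (Cyp, a digit from 1 to 3, a subfamily letter and a gene number). The deposited table of liver mRNA held 52 of them among 15126 genes. They are described in 5 AAV8-Control mice of the *db/db* strain, which lacks a working leptin receptor and becomes obese and diabetic. The mice were 10 weeks old and had been given an adeno-associated virus of serotype 8 (AAV8) that encoded eGFP 5 weeks earlier. The labels do not give their sex, and the study's methods speak of male C57B/6J mice and of *db/db* mice in a phrase that leaves open whether the latter were male too. The promoter of the vector is not given in the sources used here, and no lean mice and no mice without a virus were among these libraries. GEO's labels name both liver tissue and primary hepatocytes, and their treatment protocol speaks of adenovirus on cultured hepatocytes, whereas the sample characteristics name AAV8 and the study's text describes livers. The conflict could not be settled here, and AAV8 is taken from the characteristics. Markers of Kupffer cells (*Clec4f*, 56.0 CPM), sinusoidal endothelial cells (*Stab2*, 37.6 CPM) and stellate cells (*Dcn*, 159 CPM) were present beside hepatocyte markers such as *Alb*, at 97164 CPM. In such bulk samples, fewer cells of a type and less RNA per cell cannot be told apart.

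Enzymes of these families are heme proteins of the endoplasmic reticulum that oxidise drugs, pollutants, steroids and fatty acids with electrons passed on by P450 oxidoreductase. Hepatocytes hold most of them, and many are found chiefly in the hepatocytes around the central vein. Their transcription is governed by ligand-activated receptors, above all the aryl hydrocarbon receptor for the Cyp1 genes, the constitutive androstane receptor (CAR, gene *Nr1i3*) for *Cyp2b10* and the pregnane X receptor (PXR, gene *Nr1i2*) for *Cyp3a11*. In mice, several members also differ between the sexes through the rhythm of growth hormone release.

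CPM values are read counts scaled to the same total of reads assigned to genes in every library. Total reads per library were between 19499795 and 35498596, so that a single read was worth 0.0282 to 0.0513 CPM. Levels spanned more than 5 orders of magnitude, from a mean of 0.00563 CPM for *Cyp2b23*, which had 1 read in 1 library, to 6013 CPM for *Cyp3a11*. There were 7 members over 1000 CPM, 19 between 100 and 1000, 9 between 10 and 100 and 4 between 1 and 10. These 39 members are described below by their spread. The other 13 were under 1 CPM, the highest of them *Cyp2s1* at 0.886 CPM, and 4 of these had no more than 3 reads in any library.

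**Figure D1:**
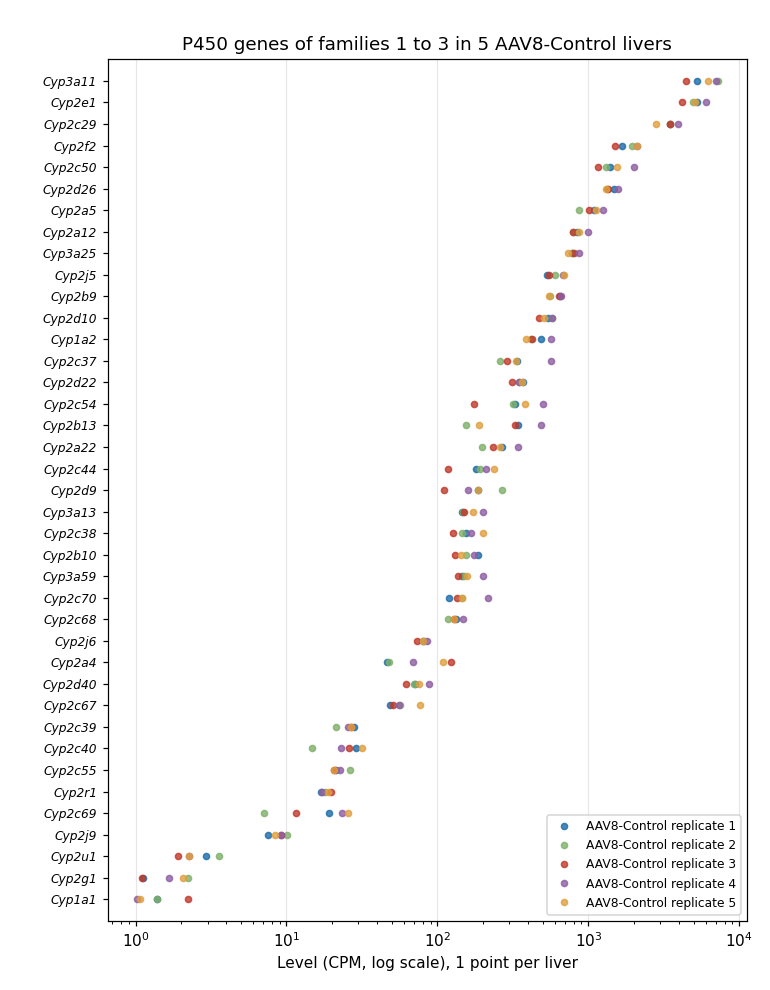
Level of the 39 P450 genes that averaged 1 CPM or more, in CPM on a log axis, with 1 point per AAV8-Control liver and genes ordered by mean level. The points run from Cyp3a11 at 4456 to 7208 CPM down to Cyp1a1 at 1.02 to 2.23 CPM, and those of Cyp2c69, Cyp2b13 and Cyp2a4 lie far apart.

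All members together held 2.75% ± 0.313 of the reads (mean ± SD, n = 5 livers). The share was 2.67%, 2.78%, 2.36%, 3.23% and 2.73% in replicates 1 to 5. Replicate 4 was the highest liver and replicate 3 the lowest. *Cyp3a11*, *Cyp2e1* and *Cyp2c29* made up 52.8% of the reads of all members, and with *Cyp2f2* and *Cyp2c50* 64.9%. Among all genes of 1 CPM or more, ordered by mean CPM, 3 members were within the first 50 and 6 within the first 100.

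Of the 15 subfamilies, Cyp3a held the largest share of reads, with 25.9% of the summed CPM of all members in 7 genes. Its sum was 6325, 8290, 5544, 8250 and 7231 CPM in replicates 1 to 5. Cyp2c followed with 23.2% in 14 genes, at 6253, 6078, 5738, 7870 and 5967 CPM. Summed per kilobase of transcript, the order of these subfamilies turned, with 3526 for Cyp2c and 3097 CPM per kilobase for Cyp3a. *Cyp2e1* alone held 18.5%. Cyp2d came next with 9.25% in 8 genes and a narrow range from 2303 to 2734 CPM, then Cyp2a with 8.24% in 4 genes and *Cyp2f2* with 6.75%. The Cyp2b, Cyp2j and Cyp1a genes held 3.88%, 2.55% and 1.65%.

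**Figure D2:**
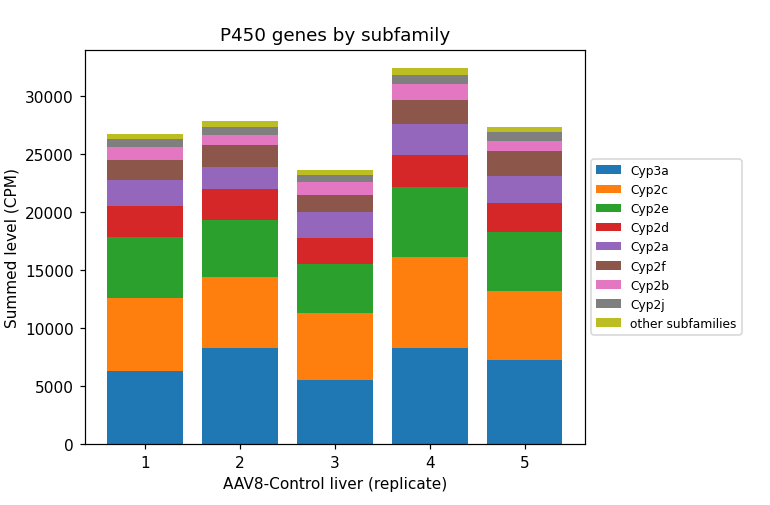
Summed level in CPM of the P450 genes of each subfamily in each AAV8-Control liver, stacked, with the smallest subfamilies joined as other subfamilies. The columns reach 26732, 27769, 23621, 32336 and 27269 CPM in replicates 1 to 5.

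Levels of different genes are compared per kilobase of the longest coding transcript. Only uniquely aligned reads were counted, and this length was not corrected for stretches shared with other genes. On this scale *Cyp2e1* came first with 2787 CPM per kilobase, before *Cyp3a11* with 2565 and *Cyp2c29* with 1922. *Cyp2e1* exceeded *Cyp3a11* in 4 of the 5 livers, and their ranges overlapped. *Cyp2c29* exceeded *Cyp2f2*, at 996 CPM per kilobase, in all 5 livers with no overlap. Of the 38 pairs of neighbours in this order, 30 had overlapping ranges and 11 stood in the same order in every liver, so most neighbours did not differ beyond the spread between livers.

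The members varied more between livers than genes did in general. Their median SD on log2(CPM + 1) was 0.208, beside 0.137 over all genes of 1 CPM or more, and 30 of the 39 were above that value. Among genes of 100 CPM or more, the median was 0.205 for 26 members and 0.120 for 1184 genes. Over all 39 members, the SD ran from 0.0836 for *Cyp2j6* to 0.72 for *Cyp2c69*. Counting error was small beside it, as the coefficient of variation that counting alone gives was under 0.25 of the measured one for 31 of the 39. In 10 members (25.6%, against 8.46% of all genes) the highest liver was at 2 times the lowest or more. Of these, *Cyp1a1* and *Cyp2g1* had as few as 22 reads in a library. Without replicate 4 the members' median exceeded that of all genes by 0.038 in place of 0.070, and without replicate 1 by 0.108.

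Replicate 4 was the highest liver for 20 of the 39 members (51.3%, against 16.4% of all genes of 1 CPM or more) and was above the mean for 31. Replicate 3 was the lowest for 18 (46.2%, against 22.0% of all genes). When the libraries were scaled by median-ratio size factors instead, replicate 4 was the highest for 23 members (59.0%, against 24.3% of all genes) and replicate 3 the lowest for 15 (38.5%, against 19.8%). The summed markers of Kupffer cells were at 170, 215, 209, 131 and 107 CPM in replicates 1 to 5, with all 7 markers at 1 CPM or more. Those of endothelial cells were at 194, 142, 172, 98.1 and 139 CPM (6 of 6 markers), so that replicate 4 was the lowest for these and the second lowest for the Kupffer cell markers. The hepatocyte markers, mostly *Alb*, summed to 97735, 121008, 122953, 133447 and 106443 CPM (8 of 8 at 1 CPM or more), with the highest value in replicate 4. *Ttr*, *Apob*, *Cps1* and *Serpina1a* were also highest in replicate 4. *Hnf4a* was highest in replicate 1, *Apoa1* in replicate 3 and *Tat* in replicate 5. Stellate cell markers, mostly *Dcn*, were at 253, 320, 256, 241 and 254 CPM (7 of 7), with the lowest value in replicate 4. *Dcn* alone was lowest in replicate 1, whereas *Reln*, *Col1a2*, *Colec11* and *Des* were lowest in replicate 4. Cholangiocyte markers, mostly *Spp1*, were at 42.6, 53.9, 33.5, 49.7 and 38.9 CPM (5 of 5), where replicate 4 was the second highest. None of 6 lymphocyte markers reached 1 CPM. The part of these levels in the P450 values was not tested.

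**Figure D3:**
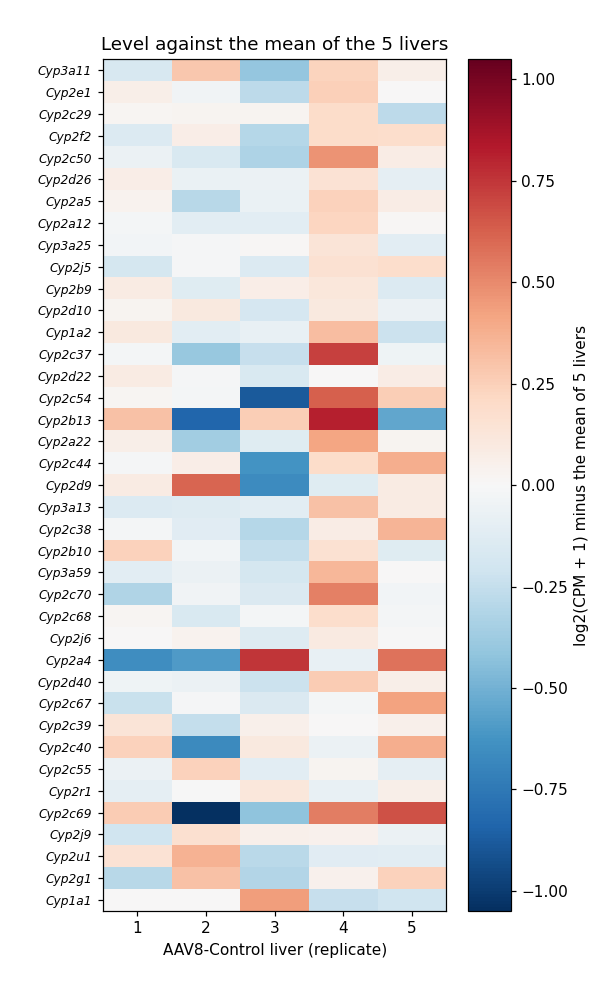
Level of each of the 39 P450 genes in each AAV8-Control liver as log2(CPM + 1) minus its mean over the 5 livers, with genes ordered by mean level. The column of replicate 4 is mostly red (higher), and that of replicate 3 mostly blue (lower). In CPM without logs, replicate 4 is above the mean for 31 genes.

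The Cyp1 genes are the classical targets of the aryl hydrocarbon receptor. *Cyp1a2*, which oxidises caffeine and aromatic amines, was at 482, 415, 425, 562 and 384 CPM in replicates 1 to 5. *Cyp1a1*, hardly made in liver without a receptor ligand, was at 1.38, 1.4, 2.23, 1.02 and 1.06 CPM. Replicate 4 was the highest liver for *Cyp1a2*. The *Cyp1a1* values rest on few reads, with a counting error of 16.4% on average, so that the order of its lower livers cannot be read. *Cyp1b1*, which is made mainly outside hepatocytes, was at 0.974, 1.11, 0.479, 0.911 and 0.628 CPM, from 25 reads or fewer.

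*Cyp2b10*, the gene most used as a readout of CAR, was at 186, 154, 132, 176 and 144 CPM, or 158 ± 22.4 CPM (SD, n = 5 livers). *Cyp2b9*, a steroid hydroxylase that is more abundant in females of common strains, was at 649, 559, 640, 663 and 552 CPM. *Cyp2b13*, its neighbour on chromosome 7, was at 340, 154, 328, 482 and 187 CPM. The livers kept close together for *Cyp2b9*, whereas *Cyp2b13* was 3.14 times as high in replicate 4 as in replicate 2. *Cyp2b19* and *Cyp2b23* had no more than 2 reads in any library.

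*Cyp2b9* and *Cyp2b13* had nearly the same start region. It is printed because 298 of its 300 bases were identical while the ratio of *Cyp2b9* to *Cyp2b13* was 1.91, 3.63, 1.95, 1.37 and 2.95 in replicates 1 to 5. The ratio is of uniquely aligned reads. Of the 50-base stretches of their transcripts, 88.8% in *Cyp2b9* and 72.7% in *Cyp2b13* were in no transcript of another gene, so its size is uncertain. The sequences are RefSeq promoter entries of GRCm38.p6, 250 bases before to 50 after the start of the gene, on the forward strand at chr7:26173159-26173458 and chr7:26061245-26061544. Capitals mark the bases that differ, which are T48C and C104T with positions counted from the 5′ end of the *Cyp2b9* sequence.

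Cyp2b9: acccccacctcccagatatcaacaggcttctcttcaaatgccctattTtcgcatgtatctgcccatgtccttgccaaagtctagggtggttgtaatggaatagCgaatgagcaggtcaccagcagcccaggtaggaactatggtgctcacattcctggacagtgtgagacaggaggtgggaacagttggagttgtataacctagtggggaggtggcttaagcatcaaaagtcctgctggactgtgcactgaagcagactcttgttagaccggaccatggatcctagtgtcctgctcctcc

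Cyp2b13: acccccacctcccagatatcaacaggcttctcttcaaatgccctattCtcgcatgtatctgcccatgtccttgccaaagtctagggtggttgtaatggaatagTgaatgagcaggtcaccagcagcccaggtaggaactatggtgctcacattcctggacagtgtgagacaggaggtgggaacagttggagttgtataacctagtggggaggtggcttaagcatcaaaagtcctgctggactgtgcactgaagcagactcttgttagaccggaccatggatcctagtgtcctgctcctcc

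*Cyp3a11* is the main Cyp3a enzyme of mouse liver and the usual readout of PXR. It was at 5255, 7208, 4456, 6978 and 6169 CPM in replicates 1 to 5, with replicates 2 and 4 the highest. *Cyp3a25* ranged from 732 to 871 CPM, *Cyp3a13*, made in gut as well as liver, from 146 to 201 CPM and *Cyp3a59* from 138 to 200 CPM. The highest liver was replicate 4 for these other 3. *Cyp3a44*, *Cyp3a16* and *Cyp3a57* stayed under 0.63 CPM in every liver.

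The start region of *Cyp3a11*, on the reverse strand at chr5:145879805-145880104 of GRCm38.p6, is shown since this gene had the highest mean CPM of the members. Capitals mark CAAAGTCCA, a sequence bound by hepatocyte nuclear factor 4 alpha, at position -109 from the start in the RefSeq entry. They also mark TATAAA, the letters of a TATA box, which here lie at position -234 and not in its usual place close to the start. GENCODE M21 places the 5′ end of the gene farther upstream, at base 145879964, so these positions depend on the annotation.

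Cyp3a11: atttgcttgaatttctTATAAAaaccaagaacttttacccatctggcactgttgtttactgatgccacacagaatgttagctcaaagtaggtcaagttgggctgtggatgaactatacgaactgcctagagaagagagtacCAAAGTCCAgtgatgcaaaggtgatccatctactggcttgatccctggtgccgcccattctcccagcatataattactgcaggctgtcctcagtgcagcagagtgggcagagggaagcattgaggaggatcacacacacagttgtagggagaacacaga

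Among the 45 members with a RefSeq promoter entry, 8 held CAAAGTCCA on either strand (17.8%, against 0.475% of 32851 promoters). These were *Cyp3a11*, *Cyp3a16*, *Cyp2c40*, *Cyp2c65*, *Cyp2c67*, *Cyp2c68*, *Cyp2c69* and *Cyp2c70*, several of which are close copies of each other and do not count as separate cases. TATAAA was in 24 of the 45 (53.3%, against 13.6%). TNGCGTG, the core of the aryl hydrocarbon receptor's response element, was in *Cyp2c68* only (2.22%, against 5.07%), and the 300 bases do not cover enhancers farther away. A match of these letters is a description of the sequence.

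*Cyp2e1* and *Cyp2f2* stand for opposite ends of the liver lobule. *Cyp2e1*, which oxidises ethanol and acetaminophen near the central vein, was at 5284, 4956, 4192, 6020 and 5089 CPM. *Cyp2f2*, found around the portal vein, was at 1668, 1934, 1493, 2110 and 2089 CPM. Both were highest in replicate 4 and lowest in replicate 3, and their ratio ranged only from 2.44 to 3.17.

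The Cyp2c genes on chromosome 19 oxidise drugs, arachidonic acid and steroids. *Cyp2c29*, the most abundant, was at 3465, 3477, 3468, 3901 and 2820 CPM in replicates 1 to 5. *Cyp2c50* was at 1392, 1301, 1163, 2020 and 1537 CPM. Both were highest in replicate 4, but the lowest liver was replicate 5 for *Cyp2c29* and replicate 3 for *Cyp2c50*. *Cyp2c37* was at 336, 259, 288, 562 and 331 CPM and *Cyp2c54* at 325, 316, 174, 497 and 383 CPM. Replicate 4 again stood highest for both, and for *Cyp2c70*, a bile acid hydroxylase in mice, at 120, 146, 134, 215 and 146 CPM. *Cyp2c44*, an arachidonic acid epoxygenase, ranged from 117 to 238 CPM, with replicate 5 the highest.

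Of the Cyp2c genes at lower levels, 3 that share many stretches of sequence stood highest in replicate 5. *Cyp2c67* was at 48.3, 56.3, 51.0, 56.0 and 76.6 CPM, with replicate 5 above the rest. *Cyp2c40* was at 28.7, 14.8, 25.9, 23.0 and 31.6 CPM and *Cyp2c69* at 19.1, 7.08, 11.5, 23.2 and 25.5 CPM, both highest in replicate 5 and lowest in replicate 2. *Cyp2c68*, which shares such stretches with them, was at 133, 117, 129, 148 and 129 CPM and highest in replicate 4. *Cyp2c39* ranged from 21.4 to 28.2 CPM. *Cyp2c55*, better known from colon, was between 20.6 and 26.5 CPM, highest in replicate 2, and *Cyp2c65* had no more than 2 reads in any library.

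*Cyp2a4*, a testosterone 15 alpha-hydroxylase of female-biased level, and *Cyp2a5*, the coumarin 7-hydroxylase, are close copies that differed in level, at 45.7 and 533 CPM per kilobase. *Cyp2a4* was at 46.3, 48.1, 124, 69.3 and 109 CPM in replicates 1 to 5. *Cyp2a5* was at 1092, 871, 1016, 1258 and 1123 CPM. Replicate 3 was the highest liver for *Cyp2a4* and second lowest for *Cyp2a5*. The ratio of *Cyp2a5* to *Cyp2a4* was 23.6, 18.1, 8.20, 18.2 and 10.3.

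Of the start regions of these genes, 294 bases were identical and 5 differed, with 1 base unpaired in each. The RefSeq entries lie on the forward strand of GRCm38.p6 at chr7:26306942-26307241 and chr7:26835089-26835388. Capitals mark C19T, T131C, G161A, G205T and T270C, counted from the 5′ end of the *Cyp2a4* sequence, and the unpaired base of each.

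Cyp2a4: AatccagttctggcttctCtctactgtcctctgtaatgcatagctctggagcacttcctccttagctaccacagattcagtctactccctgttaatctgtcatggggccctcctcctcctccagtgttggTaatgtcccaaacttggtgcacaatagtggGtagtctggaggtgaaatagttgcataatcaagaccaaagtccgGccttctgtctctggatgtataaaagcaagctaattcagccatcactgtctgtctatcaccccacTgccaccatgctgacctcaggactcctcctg

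Cyp2a5: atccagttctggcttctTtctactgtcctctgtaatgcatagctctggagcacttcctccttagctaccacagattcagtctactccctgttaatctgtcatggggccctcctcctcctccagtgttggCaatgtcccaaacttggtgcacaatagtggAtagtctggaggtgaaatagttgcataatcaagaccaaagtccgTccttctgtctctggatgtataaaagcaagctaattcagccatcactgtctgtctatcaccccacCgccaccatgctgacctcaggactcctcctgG

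Reads of such copies can be told apart only where the copies differ. Stretches of 50 bases, the length of a read, were taken from the longest coding GENCODE M21 transcript of each member. A median of 89.1% of them were in no transcript of another gene. Copies outside annotated transcripts were not searched. Every stretch was unique in 7 members, and fewer than 90% were in 29. The share was 27.9% for *Cyp2c40*, 45.2% for *Cyp2c69* and 47.2% for *Cyp2c67*, and 59.2% and 61.2% for *Cyp2a5* and *Cyp2a4*. The authors counted reads that aligned uniquely, so the levels of these members are uncertain. Of the 1754 stretches of *Cyp2c40*, 201 (11.5%) were found in *Cyp2c67*, *Cyp2c68* and *Cyp2c69* as well. The example begins at base 411 of the *Cyp2c40* coding sequence and is shown because a read of it belongs to any of the 4 genes.

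Shared by the 4 genes: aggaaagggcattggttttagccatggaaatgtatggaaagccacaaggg

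**Figure D4:**
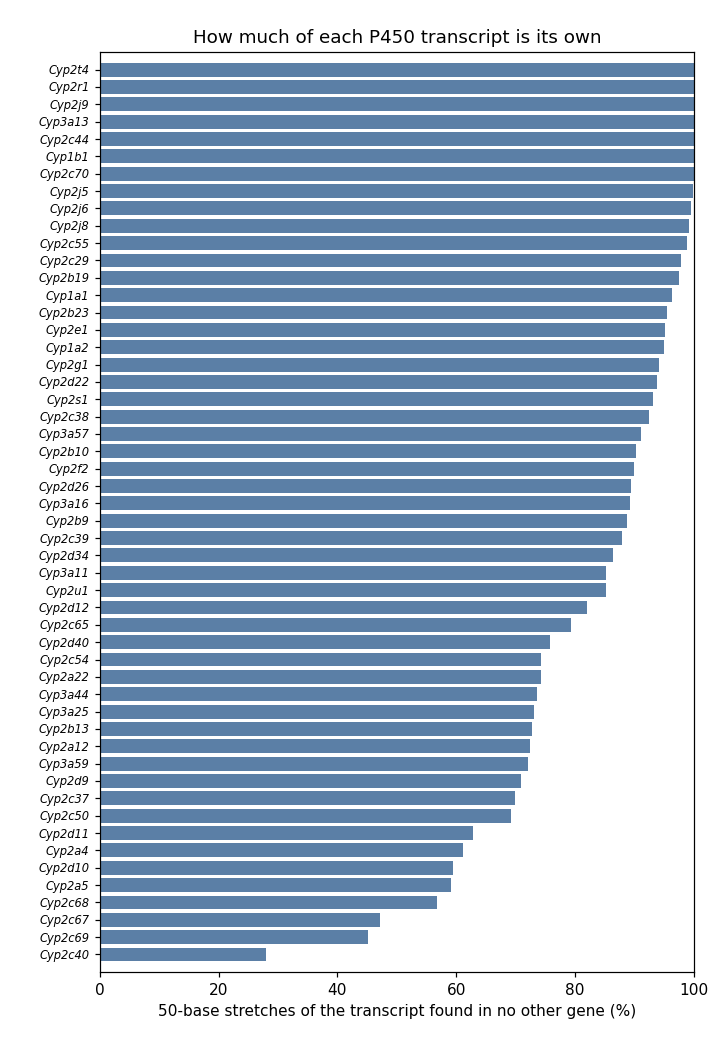
Share of 50-base stretches in the longest coding transcript of each of the 52 P450 genes that occur in no transcript of another gene, in percent. Cyp2c40 (27.9%) is the lowest, and Cyp2c69 and Cyp2c67 follow it.

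The Cyp2d genes on chromosome 15 were among the steadier ones. *Cyp2d26*, the most abundant of them, ranged from 1317 to 1564 CPM, *Cyp2d10* from 471 to 573 CPM and *Cyp2d22* from 311 to 368 CPM. *Cyp2d9*, a male-specific steroid hydroxylase in common strains, was the exception, at 186, 268, 111, 161 and 186 CPM. Its highest liver was replicate 2 and its lowest replicate 3. *Cyp2d12*, *Cyp2d11* and *Cyp2d34* stayed under 1 CPM in every liver.

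Members with roles outside drug metabolism are also in these families. *Cyp2r1*, the 25-hydroxylase of vitamin D, was at 16.9, 18.1, 19.8, 17.2 and 18.9 CPM, with an SD of 0.0903 on log2(CPM + 1). It was highest in replicate 3, the liver that was lowest for 18 of the 39. The Cyp2j genes, which make epoxides of arachidonic acid, summed to 702 ± 75.4 CPM (SD, n = 5 livers), of which *Cyp2j5* was 613 ± 72.5 CPM and *Cyp2j6* 80.3 ± 4.62 CPM. *Cyp2u1*, a fatty acid hydroxylase of brain and thymus, was between 1.92 and 3.56 CPM.

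Genes that serve the P450 system were read from lists. Of 18 regulators in the table, 17 averaged 1 CPM or more, and their median SD on log2(CPM + 1) was 0.138. *Nr1i3*, the gene of CAR, was at 132, 113, 101, 183 and 126 CPM, highest in replicate 4 and lowest in replicate 3. *Nr1i2*, the gene of PXR, was at 72.8, 73.6, 71.8, 69 and 65 CPM and varied little. *Ahr* was at 30.1, 29.7, 23.2, 36.3 and 33.9 CPM, also highest in replicate 4 and lowest in replicate 3. The regulators did not share this order. *Nr1h4*, *Nr0b2* and *Ghr* were highest in replicate 4 too, whereas *Arnt*, *Rxra*, *Nr3c1* and *Ncor1* were lowest there. Of 6 redox partners, *Por*, the oxidoreductase that feeds electrons to microsomal P450 enzymes, was at 453, 313, 399, 331 and 371 CPM. The 12 genes of heme synthesis and breakdown had a median SD of 0.0925. *Alas1*, the rate-limiting enzyme of heme synthesis, was at 239, 264, 303, 370 and 279 CPM, with replicate 4 again the highest.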

How the data were processed

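The authors aligned single reads of 50 bases from poly-A selected RNA with STAR 2.0.4b to Ensembl release 76 (GRCm38.p2) and counted uniquely aligned, unambiguous reads with featureCounts 1.4.5. They deposited CPM for protein-coding genes, a step that the sources used here do not describe. The library kit did not mark strand. Dividing by the CPM of 1 read gave whole reads for 100% of the values (within 0.05 of a read). The 5 AAV8-Control libraries were analysed, with Python 3.11.15 and pandas 2.3.3, and the comparison between groups for which the series was made is not reported here. Levels are given per library, and spreads as the SD of log2(CPM + 1) over genes that averaged 1 CPM or more, which lowers the spread of low genes. No test between groups was run, and single values were set against Dixon's limit for outliers. Replicates are separate samples in the labels, and no pair of libraries was a duplicate (lowest chi-square per degree of freedom 16.8). The members and lists were chosen with earlier results of these data known. Values per library are given for the 5 members of highest mean CPM, uncorrected for length, and for known readouts. Members named outside this rule, and list genes, were chosen after their values were seen, as were all alternatives. Promoter sequences were found for 45 of the 52 members.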

Additional observations from a re-analysis of the deposited data

Results flagged for a closer look

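*Cyp2c37* in replicate 4 was at 562 CPM, whereas the other 4 AAV8-Control livers were between 259 and 336 CPM. *Cyp2c70* in replicate 4 was at 215 CPM, whereas the others were between 120 and 146 CPM. *Cyp2c67* in replicate 5 was at 76.6 CPM, whereas the others were between 48.3 and 56.3 CPM. Each value stood farther from the rest of the group than Dixon's 95% limit allows. In all, 41 sets of values were examined and 3 stood out, and chance alone marks about 1 set in 20.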

How the results depend on the processing

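All alternatives were chosen after seeing the data. The median SD of log2 level of the members was 0.208, and it was 0.209 with a pseudocount of 0.1, 0.185 with no filter, 0.209 with at least 10 reads in every library, 0.226 with median-ratio size factors and 0.167 to 0.229 with each library left out in turn. Its difference from the median of all genes was 0.070, and it stayed above 0 in every alternative run, from 0.038 without replicate 4 to 0.108 without replicate 1. The cause was not tested. The members kept by the filter were 39 of 52, 42 with at least 10 reads in every library, and 39 to 40 without 1 library. The share of reads held by the members was 2.75%, 2.63% to 2.85% without 1 library, and 2.15% when *Cyp3a11* was left out. No paired analysis was possible because the values described come from no test and from 1 group. Depth limits the 13 members under 1 CPM, as 3 reads correspond to 0.0845 to 0.154 CPM.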
